A study of Mus musculus and Callithrix jacchus with 22 samples.

Results

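Myelin-forming oligodendrocytes (MFOL) were the cells that the study's annotation of single-cell ATAC-seq gave that name, and they numbered 2261 of 35064 cells, 337 of 19145 in mouse and 1924 of 15919 in marmoset. ATAC-seq reads mark open chromatin, because a transposase cuts and tags DNA that is accessible, and barcodes assign the reads to cells. The name was given by the study to whole clusters of cells from a panel of marker genes, and members were taken by the name alone. Gene-level accessibility was not analysed here, so Mbp (myelin basic protein, a main protein of compact myelin) and Mog (myelin oligodendrocyte glycoprotein, on the outer surface of myelin) could not be set against the label.

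Oligodendrocytes wrap axons in myelin, the sheath that lets impulses travel quickly. They arise after birth in large part from oligodendrocyte precursor cells (OPC), which divide and spread through the cortex and then pass through committed precursors (COP), newly formed oligodendrocytes (NFOL) and myelin-forming cells before they become mature oligodendrocytes (MOL). In the rodent cortex most of this progression takes place in the first weeks after birth, and new oligodendrocytes continue to be added in the adult.

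The mouse samples were wild type animals of strain C57BL/6, with somatosensory and motor cortex taken on the postnatal days 1 (P1), 7 (P7) and 21 (P21) and 4 libraries made at each age. At each age, 2 of the libraries carried the word Pool in their titles and the other 2 a pair of numbers, and these are called the Pool and the numbered libraries. The marmoset samples, from a small New World monkey, were wild type and labelled somatosensory cortex, although the study's methods name motor cortex as well. They comprised 5 adult libraries, of which 3 were labelled Y8 and 2 Y7, and 5 newborn libraries, labelled Day0. Mouse cells were indexed by plate-based combinatorial barcoding with a sort that spread cells over wells, and marmoset cells were dissociated with papain, sorted as live and run on a droplet kit. The labels attach a sort for fluorescent projection neurons to every sample, whereas the study describes the single-cell tissue as unfractionated. A sort or a dissociation of this kind can set the share of a cell type, so all shares describe the cells recovered, which can differ from the tissue. The labels do not say that libraries of a group came from separate animals, and p-values therefore measure the spread between libraries only.

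A mouse library had between 893 and 3407 cells with 2186788 to 15904940 reads in total, and a marmoset library between 1209 and 1814 cells with 5139726 to 13441944 reads. The numbered P1 libraries stood apart, with a median of 17.1 and 10.7 peaks per 100 reads, against 52.1 to 57.8 in the other 10 mouse libraries. Barcodes recurred between mouse libraries. Within each age they recurred only between the numbered and the Pool library of the same replicate number. At P21 these libraries shared 557 barcodes for replicate 1 and 331 for replicate 2. Between ages barcodes recurred as well, and only between libraries of different replicate numbers. The shared barcodes ran from 160 (first P1 Pool and second P21 Pool library) to 618 (second numbered P7 and first numbered P21 library). The source of the recurrence, and whether libraries that share barcodes are independent, was not tested. Of the mouse MFOL cells 174 (51.6%) had a barcode that was also present in another library, against 47.7% of all mouse cells, and 2 such barcodes were MFOL in both libraries. In marmoset 28 MFOL cells (1.46%) had one, against 1.85% of all marmoset cells. With only the cells whose barcode occurred in 1 library, a choice made after seeing the data, the mean MFOL share was 4.54% at P21 and 25.2% in the adults, close to the values below.

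MFOL were named at the latest age only, in both species. All 337 mouse MFOL were P21 cells of cluster 15, and all 1924 marmoset MFOL were adult cells of cluster 1. The marmoset cluster held no other cell. The mouse cluster held 400 cells, of which 84.25% were the named P21 cells, 56 were P7 cells and 7 were P1 cells, and these 63 younger cells carried no type. The study's methods split clusters by age and dropped small groups, and the smallest group of 1 cluster and 1 age that had a type held 102 cells in mouse and 110 in marmoset. Cells of the MFOL cluster were thus present at P7 without the name, and the contrast between ages was made on all cells of the cluster, named or not.

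The MFOL cluster took a larger part of the library at P21 than at the earlier ages. It made up 5.63% and 6.21% of the cells in the Pool libraries and 3.05% and 3.54% in the numbered libraries at P21. At P7 the shares were 0.448% and 1.32% in the Pool libraries and 1.22% and 0.769% in the numbered ones. Every P21 library lay above every P7 library. At P1 it was 0.237% and 0.211% in the numbered libraries, and no cell was found in the Pool libraries, where 0 of 893 and 0 of 911 cells allow shares of up to 0.336% and 0.329%. All 7 P1 cells therefore came from the libraries with few peaks per read, and the part of that property in their placement was not tested. They also had a median of 8344 reads and 15.6 peaks per 100 reads, against 1669 reads and 54.1 peaks per 100 reads in the P21 MFOL.

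The mean share of the cluster was 4.61% ± 1.54 at P21 and 0.940% ± 0.406 at P7 (SD over 4 libraries each). The difference was 3.67 percentage points or 4.90-fold (adjusted p = 0.0286, two-sided exact permutation test over libraries, Benjamini-Hochberg over 3 contrasts). P21 exceeded P1, at 0.112% ± 0.130, by 4.50 points (adjusted p = 0.0286, exact permutation test, n = 4 each). With 4 against 4 libraries 0.0286 is the smallest p possible. The cluster was chosen because its P21 cells carried the name, and small groups of a cluster and age carried none. A larger share at P21 was thus in part set by that choice, and these p-values are no independent support for it. Among cells with at least 2000 reads the difference to P7 was 1.46 points with the same p, so its size depended on depth. The gap was 5.03 points within the Pool libraries and 2.30 points within the numbered libraries, and neither series alone could pass the threshold.

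**Figure D1:**
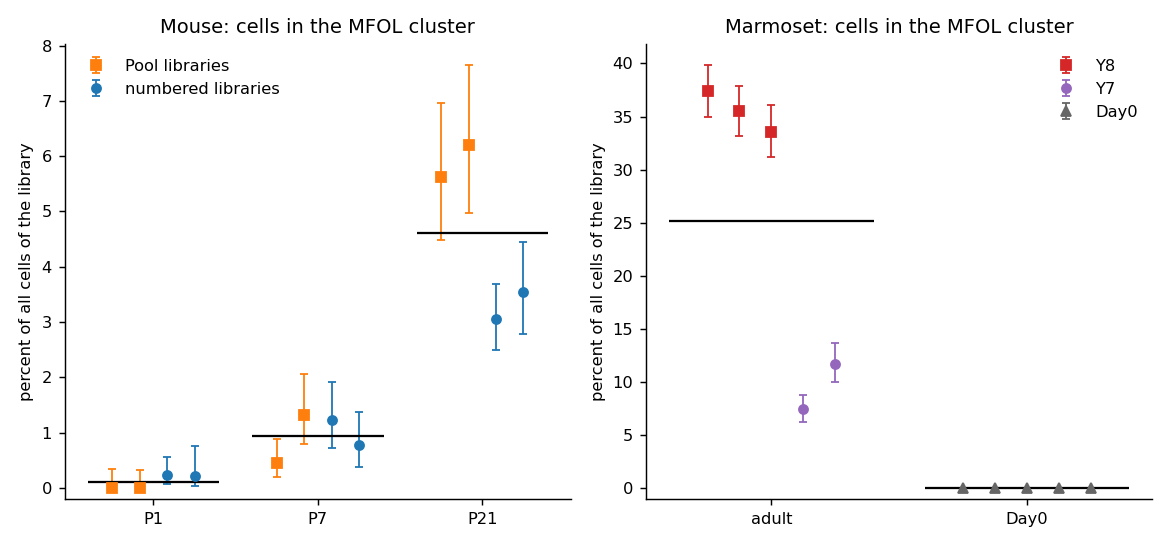
Percent of all cells of a library that fell in the cluster holding the MFOL, in mouse at P1, P7 and P21 (left) and in adult and Day0 marmoset (right). Points are libraries with exact 95% binomial intervals (for a count of 0, a bar up to 3 counts, left out for Day0) and black lines are group means, and the vertical scales differ. All 4 P21 libraries lie above the P7 libraries, and the Y8 libraries lie between 33.6% and 37.4%, above the Y7 libraries at 7.44% and 11.7%.

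In marmoset the cluster was 25.1% ± 14.3 of adult cells (SD, n = 5 libraries), 35.5% in the Y8 and 9.59% in the Y7 libraries on average, and every adult library held MFOL. The 5 Day0 libraries held 0 cells of it among 8407. The deposited marmoset table held no cell without a type, unlike the mouse table, and the study's methods dropped small groups of 1 cluster and 1 age. A small Day0 group of this cluster could therefore have been left out before deposit, so that the count of 0 sets no limit on its share. The marmoset cluster and the named MFOL were the same cells, and for both reasons no test of adult against Day0 is read from this share.

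At P21, MFOL were 4.82% ± 1.71 of the annotated cells (SD, n = 4 libraries), a denominator that leaves out cells with no type. The Pool libraries held 80 of 1350 cells (5.93%, exact 95% binomial interval 4.73 to 7.32) and 82 of 1240 (6.61%, 5.29 to 8.14). The numbered libraries held 104 of 3340 (3.11%, 2.55 to 3.76) and 71 of 1950 (3.64%, 2.85 to 4.57). The intervals, which like all others here cover counting error only, did not overlap between the series. The Pool mean lay 2.89 points above the numbered mean, or 1.86-fold, with an exact permutation p of 0.333, the smallest that 2 against 2 libraries allow. The cells of the Pool libraries agreed in type within sampling noise (p = 0.604, chi-square test of cells by type, which compares these libraries only). With their average counted as 1 library the share was 4.34% ± 1.69 (n = 3).

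MFOL were the larger part of the lineage in every P21 library. Only NFOL and MFOL were named in the lineage at that age, and MFOL made up 80.8% and 90.1% of these cells in the Pool libraries and 61.2% and 81.6% in the numbered libraries. The mean was 78.4% ± 12.2, and the number of MFOL per NFOL ranged from 1.58 to 9.11. A further 91 P21 cells sat in the mouse precursor cluster without a type. With these counted as lineage cells the MFOL share was 64.0% ± 6.62, a value computed after seeing the data. Of all glia, the lineage together with astrocytes, MFOL were 62.5% ± 5.77, and their ratio to astrocytes ran from 2.22 to 5.47.

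The named lineage as a whole differed less between P21 and P7. It leaves out the unnamed cells of the MFOL cluster and 91 unnamed P21 cells of the precursor cluster. The 254 P7 cells of the precursor cluster were named OPC and counted, and the part of this naming in the contrast was not tested. The lineage share of annotated cells averaged 2.56% ± 0.654 in P1, 5.17% ± 0.745 in P7 and 6.06% ± 1.50 in P21 libraries (SD, n = 4 for each age). P21 and P7 differed by 0.885 points or 1.17-fold, which the exact permutation test did not separate (adjusted p = 0.343). With all cells as denominator, as for the cluster share, it was 1.62 points (adjusted p = 0.0857, exact permutation test), among cells with at least 2000 reads 0.0041 points, and within the numbered libraries -0.927 points. P21 exceeded P1 by 3.50 points (adjusted p = 0.0429, exact permutation test), but by 0.794 points among cells with at least 2000 reads (adjusted p = 0.429). In marmoset the lineage was 79.0% ± 7.26 of adult cells and 13.4% ± 1.90 of Day0 cells (SD, n = 5 each). The difference was 65.6 points (adjusted p = 0.0238, exact permutation test). NFOL, MFOL and MOL were named in adults only, and small Day0 groups of these could have been left out before deposit. The part of such a removal in the difference was not tested.

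Adult marmoset libraries divided sharply by their age label. MFOL were 587 of 1570 (37.4%, interval 34.99 to 39.84), 583 of 1643 (35.5%, 33.2 to 37.9) and 491 of 1463 cells (33.6%, 31.1 to 36.0) in the Y8 libraries, against 121 of 1627 (7.44%, 6.21 to 8.82) and 142 of 1209 (11.7%, 9.98 to 13.7) in the Y7 libraries. The 2 sets did not overlap. The means were 35.5% ± 1.91 in Y8 (n = 3) and 9.59% ± 3.05 in Y7 (n = 2), a difference of 25.9 points or 3.70-fold (exact permutation p = 0.2, the smallest this design allows). With every library counted equally the adult share was 25.1%, a value that no library was close to. Likewise, replicates 2 and 3 of Y8 agreed in type within sampling noise (p = 0.258, chi-square test of cells by type), as did replicates 1 and 3 (p = 0.100), whereas replicates 1 and 2 differed (p = 0.00457). With the average of replicates 2 and 3 counted once the adult share was 22.8% ± 15.4, and with that of replicates 1 and 3 it was 22.5% ± 15.0 (n = 4 each). Age label, animal and library preparation cannot be told apart in these samples.

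MOL, the end stage of the lineage, took the opposite position. MOL were 20.8%, 22.3% and 24.1% of annotated cells in the Y8 libraries, against 52.2% and 48.1% in the Y7 libraries. MFOL outnumbered MOL by 16.6, 13.2 and 9.43 points in Y8, whereas MFOL lay below MOL in Y7, at -44.8 and -36.4 points. The sum of both types stayed within a narrow range, at 58.2%, 57.8% and 57.7% in Y8 and 59.7% and 59.9% in Y7. Of that sum MFOL made up 64.3%, 61.4% and 58.2% in Y8, against 12.5% and 19.6% in Y7, a difference of 45.3 points between the means (exact permutation p = 0.2, the smallest possible). Shares of 1 library add to a whole, so the opposite positions of the types are not separate measurements.

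The stages before MFOL were also more frequent in Y8. NFOL were 12.9% ± 1.23 of annotated cells in Y8 and 3.91% ± 0.666 in Y7, and COP 3.37% ± 0.755 in Y8 and 0.761% ± 0.141 in Y7. OPC were 10.1% ± 0.342 in Y8 and 6.72% ± 0.204 in Y7 (SD, n = 3 and 2 libraries throughout). For each of these stages every Y8 library lay above both Y7 libraries. The number of MFOL per NFOL stayed between 2.51 and 3.21 in Y8 and between 2.16 and 2.68 in Y7, so that these ranges overlapped although the MFOL share did not. MFOL per OPC ranged from 3.36 to 3.81 in Y8 and from 1.13 to 1.71 in Y7, and MFOL per astrocyte from 3.34 to 3.67 in Y8 and from 1.198 to 1.775 in Y7. Neurons moved with this split, at 4.44% to 6.62% of annotated cells in Y8 and 21.6% to 23.2% in Y7, and their part in the shares was not tested. As a share of lineage cells, a denominator without neurons, MFOL were 42.2% ± 2.98 in Y8 and 13.4% ± 4.11 in Y7.

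**Figure D2:**
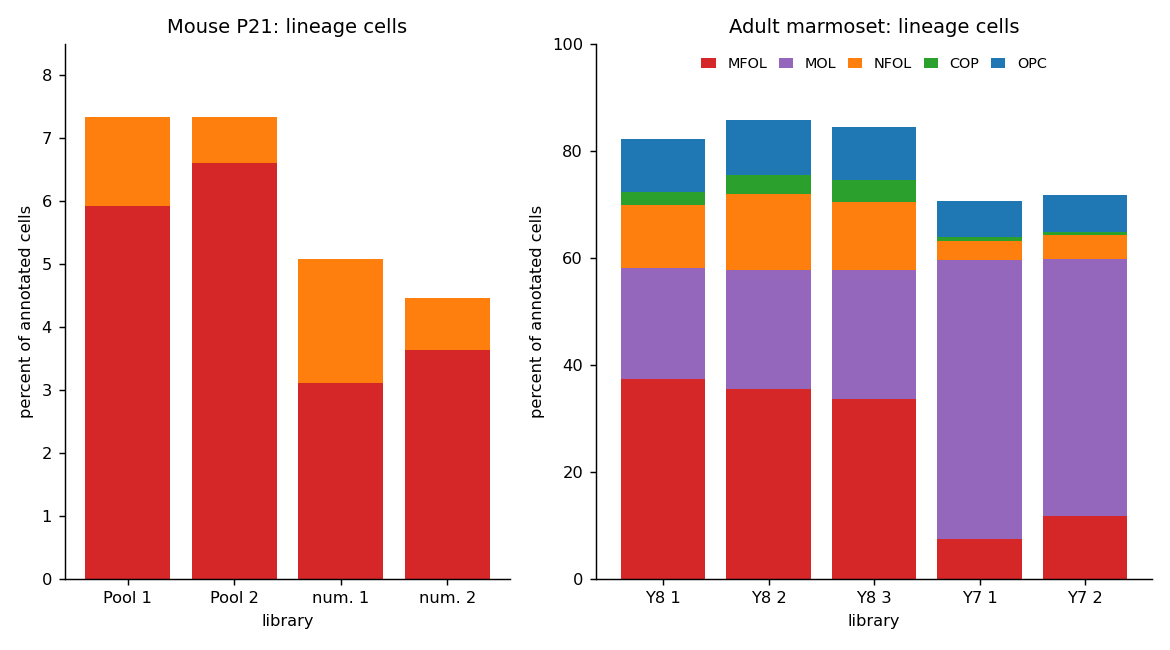
Oligodendrocyte lineage stages as percent of annotated cells in each P21 mouse library (left, MFOL and NFOL) and each adult marmoset library (right), stacked from MFOL upward, with 1 colour code for both panels and different vertical scales. MFOL and MOL add to 57.7% to 59.9% in all 5 adult libraries, with MFOL the larger of the pair in Y8 and the smaller in Y7.

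Set side by side without a test, because species, age and library chemistry go together, MFOL were 4.82% of annotated cells in P21 mouse cortex and 25.1% in adult marmoset cortex. MFOL were 78.4% of the lineage at P21, where no MOL were named, and 30.7% ± 16.0 in the adult marmoset, where MOL were the most frequent stage in Y7 only.

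MFOL were shallow cells. At P21 the median number of reads per MFOL was 1601 and 1956.5 in the Pool libraries and 1608.5 and 1644 in the numbered libraries, and the median number of peaks with a read was 882, 1059, 861.5 and 891 in the same order. In the adults the median reads per MFOL were 2041, 2195 and 2287 in Y8 and 1852 and 2103 in Y7, with 1082, 1166 and 1222 peaks in Y8 and 998 and 1091 in Y7. The lower limit of the deposited cells was 1000 reads in both species. At P21 128 of the 337 MFOL (38.0%) had fewer than 1500 reads, and in the adults 386 of 1924 (20.1%). At the other end, 20 mouse MFOL (5.93%) and 40 marmoset MFOL (2.08%) had 5000 reads or more, and none of the 40 was in a Y7 library.

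NFOL, the stage just before, had more reads than MFOL in the same libraries. At P21 the MFOL medians of 1601 to 1956.5 reads stood against NFOL medians of 5950 and 4800 in the Pool libraries and 4263.5 and 4466.5 in the numbered libraries. MFOL lay below NFOL in 4 of 4 libraries, by a mean of -1.51 ± 0.264 on the log2 scale, or 0.351-fold (exact sign-flip permutation p = 0.125, the smallest that 4 pairs allow). NFOL numbered only 9 to 66 cells per library. In adults the NFOL medians were 3644, 3412 and 3424 in Y8 and 1816.5 and 3480 in Y7. MFOL were lower in 4 of 5 libraries, at -0.55 ± 0.338 on the log2 scale or 0.683-fold (exact sign-flip permutation p = 0.125). The exception was the first Y7 library, in which MFOL and NFOL differed by 0.03 on the log2 scale, and with means of reads in place of medians the adult difference was -1.03.

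MOL differed less from MFOL in depth. The MOL medians were 2475, 2249 and 2471 reads in Y8 and 3101.5 and 3206 in Y7. MFOL were lower in 5 of 5 libraries, at -0.36 ± 0.309 on the log2 scale or 0.782-fold (exact sign-flip permutation p = 0.0625, the smallest that 5 pairs allow). In Y8 the library differences were -0.28, -0.04 and -0.11, against -0.74 and -0.61 in Y7. The depth gap between the stages was thus larger in both Y7 libraries than in any Y8 library.

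MFOL were also shallower than most other types. In adults MFOL had 0.450-fold the median reads of OPC, 0.784-fold those of COP, 0.768-fold those of astrocytes and 0.293-fold those of all neurons taken as 1 class, each lower in 5 of 5 libraries (exact sign-flip permutation p = 0.0625 each). At P21 MFOL had 0.425-fold the reads of neurons, lower in 4 of 4 libraries, and 1.18-fold those of astrocytes, higher in 4 of 4 (exact sign-flip permutation p = 0.125 each). Clusters were built by the study from the same reads, so depth is not fully independent of the type a cell was given.

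**Figure D3:**
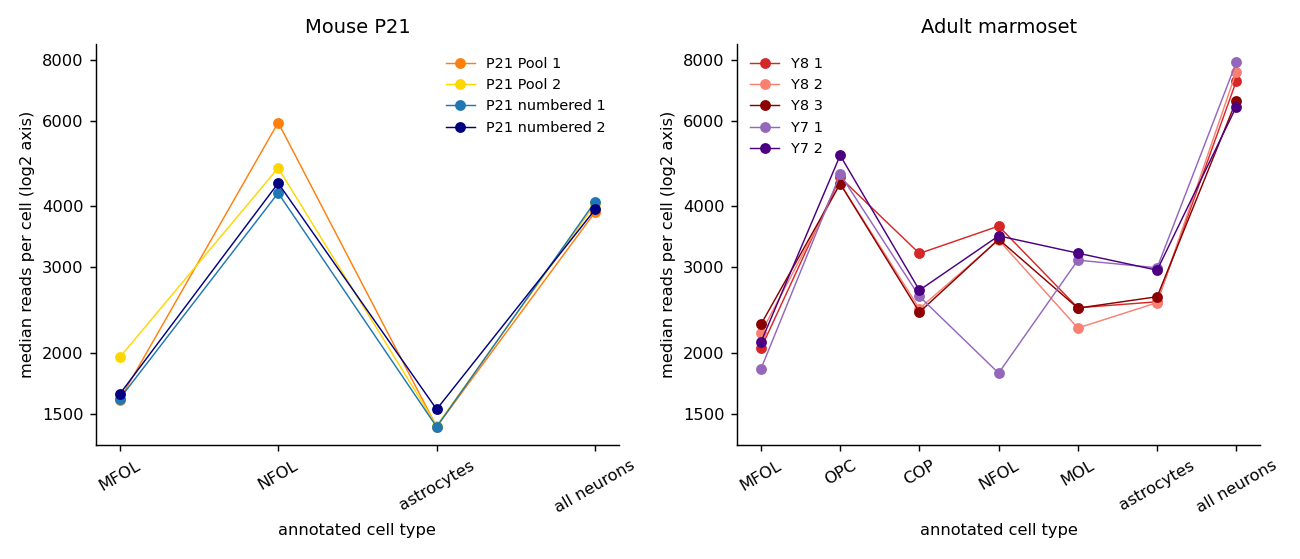
Median reads per cell of each annotated type (log2 axis), 1 line per library, in P21 mouse (left) and adult marmoset (right). MFOL sit at 1601 to 1956.5 reads at P21 and at 1852 to 2287 in adults, below NFOL in all libraries but the first Y7 library.

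The weight of MFOL fell with depth. At P21 they were 16.0% of the annotated cells with 1000 to 1499 reads, 12.4% at 1500 to 1999, 5.24% at 2000 to 2999, 1.19% at 3000 to 4999 and 0.719% at 5000 or more. Of MFOL and NFOL together, MFOL were 93.4%, 90.9%, 84.9%, 44.1% and 30.3% in these read classes, with cells summed over libraries. The series differed most at 3000 to 4999 reads, where MFOL were 70% of 20 cells in the Pool libraries (exact 95% interval 45.7 to 88.1) and 30.8% of 39 cells in the numbered libraries (17.02 to 47.57), intervals that overlapped. At a minimum of 2000 reads the P21 MFOL share was 2.22% ± 1.22 of annotated cells, and at a minimum of 1000 peaks 2.46% ± 1.31, against 4.82% among all cells. The P21 share is thus strongly tied to where a depth limit is set.

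In adults the same limit acted unequally on the age labels. A minimum of 2000 reads left the MFOL share at 30.6% ± 1.28 in Y8, against 35.5% among all cells, and at 5.98% ± 2.93 in Y7, against 9.59% (n = 3 and 2 libraries). The first Y7 library changed most, with 3.91% at the limit against 7.44% among all cells, and the mean of all 5 libraries was 20.7% ± 13.6. Of MFOL and MOL together, MFOL were 61.3%, 68.2%, 67.5%, 52.5% and 29.6% in Y8 over the same read classes from low to high, against 35.4%, 31.5%, 19.1%, 6.35% and 0% in Y7. In the deepest class Y7 held 0 MFOL and 245 MOL (a count of 0 allows up to 1.22%), whereas Y8 held 40 MFOL and 95 MOL. With cells summed over libraries, Y8 was above Y7 in each of the 5 read classes. At 1000 to 1499 reads, replicate 3 of Y8 was at 47.9% (exact 95% interval 38.8 to 57.2). Replicate 2 of Y7 was at 42.5% (31.0 to 54.6), so that these intervals overlapped. The part of depth in the contrast between the age labels was not tested.

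**Figure D4:**
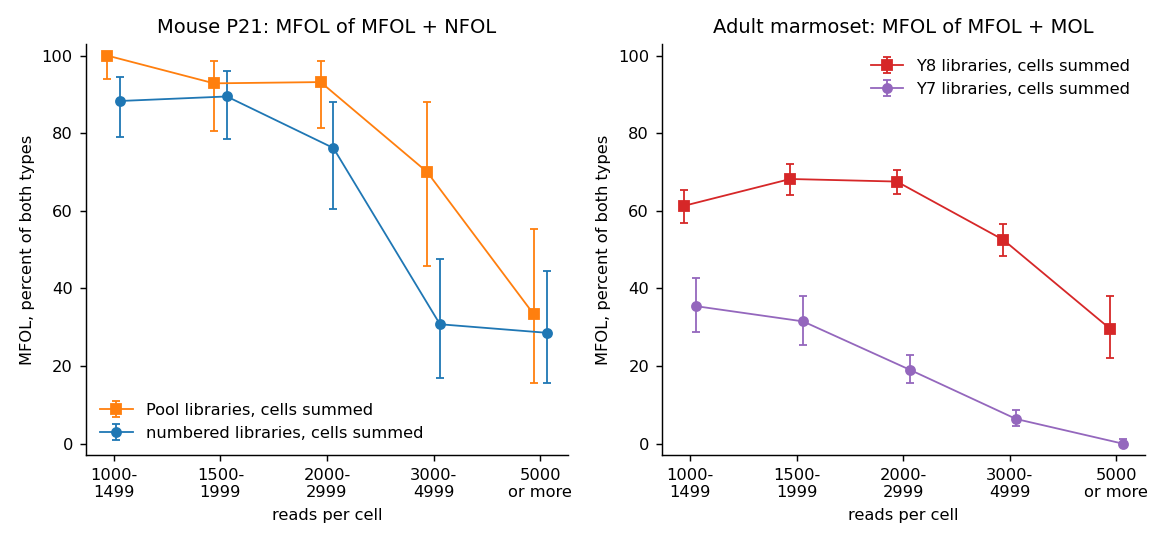
MFOL as percent of MFOL and NFOL at P21 (left) and of MFOL and MOL in adult marmoset (right), by reads per cell, with cells summed over the libraries of a sub-group and exact 95% binomial intervals (for a count of 0, a bar up to 3 counts). The Y8 line runs between 68.2% and 29.6% and lies above the Y7 line, which ends at 0%, in all 5 read classes.

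The number of peaks hit per read differed with depth. MFOL averaged 54.7 peaks per 100 reads in the class of 1000 to 1499 reads and 52.7 at 5000 or more at P21, and 54.3 and 49.5 in the same classes of the adults. Types were therefore compared at like depth. Cells were placed in bins of 0.5 on the log2 scale of reads, and bins with at least 3 cells of both types were averaged with the MFOL as weights. The medians without this step were 54.3 and 54.4 peaks per 100 reads for MFOL in the P21 Pool libraries, 53.6 and 54.2 in the P21 numbered libraries, 52.9, 53.0 and 53.2 in Y8 and 53.5 and 52.5 in Y7.

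In adults MFOL reads were spread over fewer peaks than NFOL reads at like depth. In adults MFOL differed from NFOL by -4.40, -3.66 and -3.72 peaks per 100 reads in Y8 and by -2.76 and -5.15 in Y7, with a mean of -3.94 ± 0.892 (5 of 5 libraries, exact sign-flip permutation p = 0.0625). At P21 the difference was -3.07 ± 0.653 over the 3 libraries that had comparable bins. Of these, 1 rested on 4 MFOL and 3 NFOL, and the second numbered library on 7 MFOL and 8 NFOL. With bins of 0.25 the difference was -0.93 ± 2.35 over 2 libraries, so the mouse value depended on the binning. Against neurons MFOL also had fewer peaks per 100 reads, with differences of -3.09 ± 1.23 in adults (5 of 5 libraries) and -2.32 ± 0.351 at P21 (4 of 4 libraries). The adult direction depended on the matching, since the medians of all cells differed by 0.81, 0.34 and 0.51 in Y8 and by -1.61 in each Y7 library.

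MFOL and MOL were close in this measure. MFOL differed from MOL by -0.026, -0.24 and -0.35 peaks per 100 reads in Y8 and by -1.02 in each Y7 library, with a mean of -0.53 ± 0.459 (exact sign-flip permutation p = 0.0625). The sign was the same in 5 of 5 libraries but the size in the first Y8 library was near 0. Against OPC the difference was -1.16 ± 0.356 at like depth, whereas the medians of all cells gave 1.24 in the opposite direction. Differences from COP (-0.23 ± 0.590) and from astrocytes (-0.07 ± 0.251 in adults, 0.04 ± 0.504 at P21) went both ways between libraries.

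**Figure D5:**
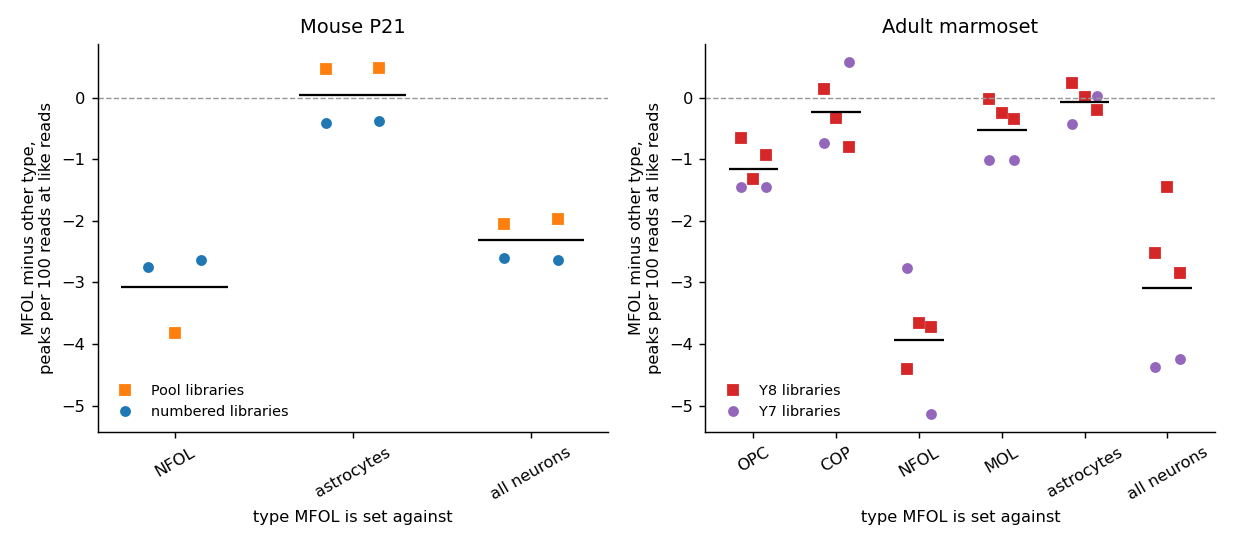
Difference in peaks per 100 reads between MFOL and each other type at like reads, 1 point per library, with black lines for the mean over libraries and a dashed line at 0, in P21 mouse (left) and adult marmoset (right). MFOL lie below NFOL and below neurons in every library that had comparable bins, and astrocytes fall on both sides of 0.

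The unnamed P7 cells of the MFOL cluster overlapped the P21 MFOL in depth. Their median reads were 1785.5 and 1584 in the Pool libraries (8 and 19 cells) and 2647.5 and 2285 in the numbered libraries (18 and 11 cells), against P21 medians of 1601 to 1956.5. The P7 medians thus lay on both sides of the P21 range. Over all 56 cells the median was 2066 reads and 1113 peaks, against 1669 reads and 902 peaks in the 337 P21 MFOL. Among other P7 cells it was 2003 reads and 1080.5 peaks in OPC and 1496 reads and 829.5 peaks in astrocytes. A like depth is thus not particular to the MFOL cluster.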

How the data were processed

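The authors aligned reads to mm10 or CalJac3 with Bowtie2, removed duplicates with Picard, sampled libraries to a similar depth, called peaks with MACS2 in the Scasat pipeline, clustered cells by latent semantic indexing and named whole clusters from marker gene scores. For doublets, the sources used here gave no handling. The deposited values were counts without normalization, 1 row per cell: reads, and peaks with at least 1 read. No per-gene values were analysed here, and no gene is named for its values. The lowest counts were 1000 reads in both species, and 300 peaks in mouse and 453 in marmoset.

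Cells were counted per library by type and cluster. The 1697 mouse cells with no type were left out of annotated cells. Libraries, not cells, were the units, weighted equally. Age contrasts used two-sided exact permutation tests with Benjamini-Hochberg adjustment over 3 contrasts per quantity at 0.05. Types within a library were compared by an exact sign-flip test of paired differences. Intervals were exact (Clopper-Pearson, 95%), and a count of 0 was given the limit of 3 counts except for Day0, where small groups could have been removed before deposit. Alternatives were minimum reads or peaks, other denominators, leaving out libraries, each sub-series alone and a replicate block. Averaging agreeing libraries, counting unnamed precursor cells, leaving out the numbered P1 libraries, a ceiling on reads and leaving out shared barcodes were added after seeing the data. The members and types were chosen with earlier results of these data known. Types named were the lineage stages, astrocytes, neurons as 1 class and unnamed cells of the MFOL cluster. The tests were tested on simulated data. Python 3.11.15, numpy 2.4.6, pandas 2.3.3 and scipy 1.17.1 were used.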

Additional observations from a re-analysis of the deposited data

Results flagged for a closer look

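The position of MFOL relative to MOL went opposite ways in the 2 adult ages: MFOL minus MOL averaged 13.1 points of annotated cells in the 3 Y8 libraries and -40.6 points in the 2 Y7 libraries, with every library on the side of its age. This difference itself was not tested, and the exact permutation tests of related shares between the ages could not give a p under 0.2.

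Single libraries stood apart from the others of their group in 8 of 93 sets of values examined, where chance gives about 1 in 20 for a single set. The sets overlap, since reads, peaks and the percent under 1500 reads of the same cells were each examined. The count of 8 therefore cannot be read as an excess over chance. The median of MFOL in the second P21 Pool library was high, at 1956.5 reads and 1059 peaks, and that of P21 astrocytes in the second numbered library was 1530.5 reads. In the first Y7 library NFOL had a low median, with 1816.5 reads and 1030 peaks, 39.3% of them had fewer than 1500 reads, and MFOL and NFOL differed by -0.046 in log2 median peaks. COP in the first Y8 library had a median of 1684 peaks.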

How the results depend on the processing

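Of 177 values recomputed under another setting, 126 kept their direction and side of the threshold or moved by less than 1 SD. Of the others 41 no longer passed the threshold, 6 moved by 1 SD or more, 3 passed only under the other setting and 1 reversed. For the MFOL shares, leaving out 1 library cannot move the mean by 1 SD. Nor can taking 1 mouse series or Y8 alone, so these outcomes were fixed in advance. The paired tests of reads and of matched peaks had at most 5 libraries and could not go below 0.0625. Their side of the threshold was thus fixed, and for them the count of 126 covers direction only. That count also holds 14 values of the adult cluster share over Day0, from which no test is read. MFOL shares at P21 moved to 2.22% of annotated and 60.8% of lineage cells with at least 2000 reads, to 2.46% and 62.4% with at least 1000 peaks, and to 64.0% of the lineage with unnamed precursor-cluster cells. The adult share was 9.59% in Y7 alone.

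Leaving out 1 library gave 4.23% to 5.39% and 22.1% to 29.5% of annotated cells (P21, adult) and 74.5% to 84.2% and 27.0% to 35.7% of lineage cells. For the cluster share it gave 3.14 to 4.19 points over P7, 3.96 to 5.02 over P1 and 22.1 to 29.5 over Day0, for the lineage share 0.457 to 1.42, 3.07 to 4.03 and 63.8 to 67.7. The cluster range over Day0 is only the range of the adult share, since every Day0 library held none of the cluster. Mouse contrasts with 3 against 4 libraries could not pass.

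Cluster-share differences from P7 and P1 were 2.30 and 3.07 points in numbered and 5.03 and 5.92 in Pool libraries alone, 4.61 from P1 without the numbered P1 libraries, and 9.59 from Day0 with Y7 alone. With fewer than 3000 reads the difference from P7 was 8.59. Lineage-share differences from P1 were 0.794 at 2000 reads, 1.86 (numbered), 5.13 (Pool) and 3.85 (without numbered P1), that from P7 reversed to -0.927 in numbered libraries, and those from Day0 were 57.8 (Y7) and 70.8 (Y8), which did not pass. With annotated cells as denominator the P7 and P1 shares are 0 by construction, and the Day0 zeros may rest on the removal of small groups before deposit.

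Across ages, deviations of same-numbered mouse libraries correlated at -0.851 to 0.089, 0 of 8 over 0.1, and the own number correlated best in 5 of 24 cases. This check used shares of cell classes and cannot exclude a pairing. Within an age, mouse barcodes were shared along replicate numbers. Between ages they were shared only across different numbers, whereas the replicate block pairs libraries of the same number. With a replicate block the cluster-share differences were 3.67, 4.50 and 26.5 points and the lineage-share differences 0.885, 3.50 and 65.7, none past the threshold, since 4 pairs cannot go below 0.125 or 3 pairs below 0.25. Without the pairing (no replicate block), median reads of MFOL against NFOL at -1.51 (P21) and -0.55 (adult) and against MOL at -0.36 passed (exact permutation p = 0.0286, 0.0476 and 0.0159). Both types come from the same libraries, so these unpaired p-values do not suit the design and are not read as support. The paired values were 0.125, 0.125 and 0.0625 (exact sign-flip permutation test).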
